A study of Rattus norvegicus with 8 samples.

Results

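Genes that cells use to enter and carry out mitosis were followed through single-cell RNA libraries of rat fracture callus, the new tissue that forms around a healing break. The set was a list of 49 named genes with roles in G2 phase, mitosis and cytokinesis. Of these, 46 were listed in all 8 count tables, among 12282 genes listed in any table, and Cenpe, Ckap2l and Anln were listed in 0. A mean of at least 5 CPM over the 8 libraries was reached by 43 members, among 7226 genes in all, and not by Aurkb, Hjurp and Psrc1. CPM is the number of unique molecular identifiers (UMIs, the tags that mark single captured transcripts) of a gene per 1000000 UMIs of its library.

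All animals were Sprague Dawley rats with a femur broken on 1 side under closed skin and held by an intramedullary nail, and callus was taken 4 or 12 weeks later. The control libraries came from untreated rats. The zoledronate, CGRP and magnesium groups all received zoledronate, a bisphosphonate that blocks bone resorption, under the skin at 0.3 mg/kg each week for 12 weeks ahead of the fracture. To this the CGRP group added calcitonin gene-related peptide, a neuropeptide, and the magnesium group added Mg. The labels name stainless steel and Mg-containing nails without tying them to groups, and no source used here gives the ages, the sex or the number of rats per library. Tissue was digested for 4 h in collagenase A and the cells spent 24 h on a culture dish, so division in the dish and in the animal cannot be told apart. Each treatment and week is 1 library, so differences between libraries have no replicate check and no p-value is given.

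The libraries held 7541 to 10670 barcodes, of which 6809 to 10370 had at least 5000 UMIs and are the cells described here (65208 in all, with 139656712 to 159685281 UMIs per library and a median of 12742 to 20545 UMIs per cell). Any pair of libraries shared 13 to 31 barcodes, at most 0.386% of the smaller one. Fibroblastic markers (9 of 10 listed, led by Col1a1 and Col1a2) summed to 23736 to 41802 CPM. The control library of week 12 (23736 CPM) and the CGRP library of week 4 (25095 CPM) were the lowest and stood apart from the other 6, at 35461 CPM or more. Blood lineage markers were near 0 (0 to 0.116 CPM). Osteoclast markers (0.184 to 0.422 CPM) and endothelial markers (1.07 to 5.93 CPM) were also near 0. Mural and muscle markers were not, at 8.28 to 68.5 CPM, led by Myh11 (7.99 to 66.9 CPM). Macrophage markers summed to 11.4 to 16.9 CPM, led by Cd14 (10.2 to 15.2 CPM). The osteoblastic list summed to 21.7 to 60.8 CPM over libraries, mostly from Runx2 (15.0 to 21.0 CPM) and Alpl (4.32 to 33.9 CPM), with Ibsp at 0.188 to 7.93 CPM and Bglap, Sp7 and Dmp1 near 0. The chondrocytic list summed to 73.2 to 258 CPM, from Sox9 (53.6 to 106.2 CPM), Acan (11.9 to 132 CPM) and Hapln1 (0.0626 to 112 CPM), with Col2a1, Col9a1 and Matn3 near 0.

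A dividing cell first copies its DNA in S phase, passes through G2 and then enters mitosis when the kinase Cdk1, bound to cyclin B, becomes active. The spindle then attaches to chromosomes at kinetochores, a checkpoint holds the cell until every chromosome is attached, and the anaphase-promoting complex marks cyclin B and securin for destruction so that the chromosomes part. Transcripts of these proteins are low through most of the cycle and accumulate in G2 and mitosis. Many of their promoters carry 2 kinds of short element, the CCAAT box, bound by the factor NF-Y, and the cell cycle genes homology region (CHR), bound by complexes built on the MuvB core, which repress these genes in resting cells and activate them in dividing ones. Fracture repair depends on the proliferation of periosteal and other skeletal progenitors.

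The promoters of the members were read from RefSeq windows of the GRCr8 assembly that span 250 bases before to 50 bases after the annotated start. At least 1 window was available for 41 of the 46 listed members. Both strands were searched for CCAAT, which the other strand spells as ATTGG, and for the CHR. The CHR was taken as TTTGAA, which the other strand spells as TTCAAA, or as its variant TTTAAA, which reads alike on both strands. CHR letters were present in 37 of 42 member windows (88.1%), against 28.3% of 33469 rat promoters and 19% of the promoters of genes in the count tables. At least 1 CCAAT was present in 71.4% of member windows against 37.5% of all promoters, and 2 or more CCAAT were present in 54.8% against 11.2%. Both kinds together were found in 64.3% of member windows and in 11.3% of all promoters. The shares of member windows were therefore above those of all promoters for each pattern. The 150 bases before the start are shown for the proliferation marker Mki67, the topoisomerase Top2a, the cyclin Ccnb1, the kinase Cdk1 and the anaphase activator Cdc20, since results on these genes follow, and for Arl6ip1 as a member whose whole window held no CHR letters. CHR and CCAAT letters are in capitals, and each run reads 5′ to 3′ toward the start.
Mki67: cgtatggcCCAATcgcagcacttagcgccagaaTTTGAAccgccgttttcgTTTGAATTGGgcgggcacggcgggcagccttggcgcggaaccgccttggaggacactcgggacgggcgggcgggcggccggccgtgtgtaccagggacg
Top2a: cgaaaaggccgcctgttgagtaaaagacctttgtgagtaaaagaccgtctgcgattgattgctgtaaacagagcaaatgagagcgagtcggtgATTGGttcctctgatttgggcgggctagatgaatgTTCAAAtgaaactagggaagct
Ccnb1: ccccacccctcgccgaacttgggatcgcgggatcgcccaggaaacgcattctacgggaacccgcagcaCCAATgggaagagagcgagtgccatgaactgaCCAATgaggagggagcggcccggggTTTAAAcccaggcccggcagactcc
Cdk1: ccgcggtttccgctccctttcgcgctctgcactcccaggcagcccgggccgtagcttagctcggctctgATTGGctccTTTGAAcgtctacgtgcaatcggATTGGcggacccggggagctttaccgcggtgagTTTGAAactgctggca
Cdc20: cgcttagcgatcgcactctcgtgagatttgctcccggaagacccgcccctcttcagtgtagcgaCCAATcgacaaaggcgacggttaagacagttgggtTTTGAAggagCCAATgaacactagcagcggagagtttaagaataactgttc
Arl6ip1: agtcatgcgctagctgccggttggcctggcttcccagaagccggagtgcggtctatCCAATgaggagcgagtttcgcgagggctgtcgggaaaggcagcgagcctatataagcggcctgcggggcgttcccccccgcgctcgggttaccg

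On GRCr8 these stretches are chr1:199952594-199952743 for Mki67, chr10:84473094-84473243 for Top2a, chr2:33655226-33655375 for Ccnb1, chr5:137255800-137255949 for Cdc20 and chr1:181874233-181874382 for Arl6ip1, all on the minus strand, and chr20:19265143-19265292 on the plus strand for Cdk1. They lie upstream of the annotated first exons. The CHR letters nearest the start began 22 bases before it in Top2a, 25 in Ccnb1, 16 in Cdk1 and 51 in Cdc20. In Mki67 the second TTTGAA, 99 bases before the start, overlaps an ATTGG by 1 base. Among the 39 members that had a window and a mean of at least 5 CPM, Arl6ip1 and Cdca3 lacked CHR letters. A match is a string of letters and not a measured binding site.

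Summed over the 46 listed members, the module was highest in the CGRP library of week 4 and lowest in the zoledronate library of week 12. At week 4 the sum was 2472 CPM (exact Poisson 95% interval 2464 to 2480) in control, 1602 CPM (1596 to 1608) in zoledronate, 3446 CPM (3437 to 3456) in CGRP and 1724 CPM (1717 to 1731) in magnesium. At week 12 it was 2507 CPM (2498 to 2515), 507 CPM (504 to 511), 1166 CPM (1161 to 1172) and 1109 CPM (1104 to 1114) in the same order. The control libraries of both weeks were thus nearly level, while each zoledronate-treated group was lower at week 12 than at week 4. All intervals here and below cover counting error only, with each UMI taken as 1 draw, and leave out any variation from rat to rat or dish to dish.

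A cell was called module-high when the members made up at least 0.1% of its UMIs. This is a range of a continuous score and not a cell type, and 0.873% to 4.86% of the cells of a library lay between 0.08% and 0.12%. At week 4, module-high cells were 31.3% of control cells (exact Clopper-Pearson 95% interval 30.2 to 32.4), 20.8% of zoledronate cells (19.9 to 21.7), 48.5% of CGRP cells (47.4 to 49.6) and 22.3% of magnesium cells (21.4 to 23.3). At week 12 the shares were 41.4% (40.3 to 42.5), 5.91% (5.43 to 6.41), 16.5% (15.8 to 17.2) and 16.7% (15.9 to 17.6). The order of the shares was CGRP week 4, control week 12, control week 4, magnesium week 4, zoledronate week 4, magnesium week 12, CGRP week 12 and zoledronate week 12. The neighbours CGRP week 12 and magnesium week 12 had overlapping intervals, and so did zoledronate and magnesium at week 4. Module-high cells had more UMIs than other cells in all 8 libraries, with medians of 16584 to 23860 against 12148 to 19754. After each cell was thinned to 5000 UMIs the shares were 32.6%, 21.5%, 49.9% and 22.9% at week 4 and 42.8%, 6.23%, 17.0% and 17.5% at week 12. The order of the 8 libraries was the same at this equal depth.

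**Figure D1:**
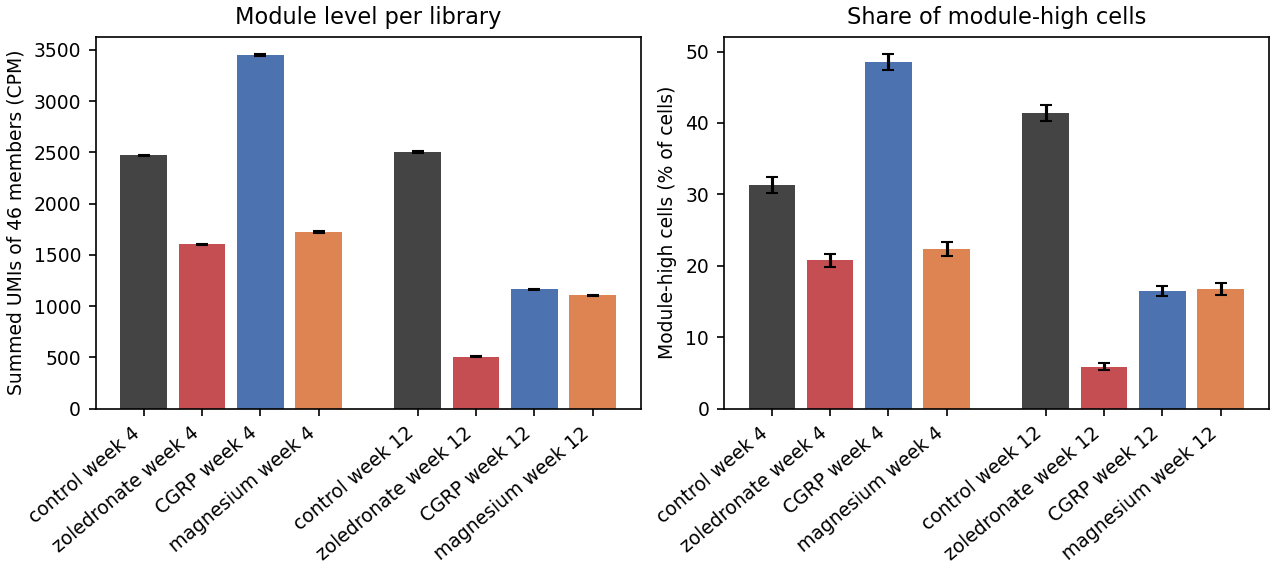
Left, summed UMIs of the 46 listed members per 1000000 UMIs (CPM) in each library; right, percent of cells with at least 0.1% of their UMIs from the members. Error bars are 95% counting intervals (Poisson, left; Clopper-Pearson, right), and the CGRP library of week 4 (3446 CPM, 48.5%) and the zoledronate library of week 12 (507 CPM, 5.91%) are the extremes.

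The 2 libraries with the lowest fibroblastic marker sums, control week 12 and CGRP week 4, had the 2 largest shares of module-high cells. Within each of the 8 libraries, module-high cells also had lower fibroblastic sums than other cells, with ratios of 0.701 to 0.809. This was not particular to fibroblastic markers. The sums of the osteoblastic (0.614 to 0.964), chondrocytic (0.586 to 0.913) and mural and muscle lists (0.441 to 0.664) were lower in all 8 libraries too. Single genes of these lists differed. Hapln1 was higher in module-high cells in 7 libraries and Runx2 in 6, against 0 for Sox9, Acan, Alpl and Myh11. The macrophage list was higher in module-high cells in 1 library, and the endothelial and osteoclast lists, near 0, in 4 and 6. Whether the cell make-up of the dishes has a part in the module's differences was not tested.

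Among cyclins, kinases and their partners, Cks2, which encodes a small subunit of cyclin-dependent kinase complexes, stood at 128, 82.4, 174 and 87.3 CPM in the control, zoledronate, CGRP and magnesium libraries of week 4, and 137, 29.2, 64.7 and 57.6 CPM at week 12. Ccnb1, cyclin B1, stood at 87.3, 52.9, 135 and 56.3 CPM at week 4, and 87.8, 12.4, 39.2 and 35.3 CPM at week 12. Both genes were highest in CGRP at week 4 and lowest in zoledronate at week 12, and their control values of the 2 weeks were close. Cdk1, the kinase that cyclin B activates, stood at 42.8, 28.9, 54.3 and 32.1 CPM at week 4, and 45.6, 14.1, 18.2 and 20.6 CPM at week 12. Its spread was narrower than that of its cyclin: the highest library was 3.86 times the lowest for Cdk1 and 10.9 times for Ccnb1. Ccnb2, Aurka and Plk1, a second B-type cyclin and 2 mitotic kinases, had the same highest and lowest libraries.

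For the anaphase-promoting complex, the members were its activator Cdc20, the ubiquitin-conjugating enzyme Ube2c that works with it, and its substrates Pttg1 (securin) and Cdca3. Ube2c stood at 202, 130.3, 335 and 145 CPM at week 4, and 219, 35.1, 102 and 102 CPM at week 12. Cdc20 stood at 79.5, 46.8, 120.3 and 50.8 CPM at week 4, and 81.5, 12.9, 36.2 and 32.0 CPM at week 12. Both genes put zoledronate at week 12 far below the other 7 libraries, and for Ube2c the CGRP and magnesium libraries of week 12 were level.

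The chromosomal passenger complex corrects faulty spindle attachments and acts in cytokinesis. Its member Cdca8 (borealin) stood at 72.3, 50.7, 107 and 51.8 CPM at week 4, and 79.6, 15.8, 37.6 and 33.6 CPM at week 12. Birc5 (survivin) stood at 13.6, 9.08, 19.6 and 10.4 CPM at week 4, and 17.5, 4.14, 6.88 and 7.11 CPM at week 12. Both had control above zoledronate at each week. Aurkb, the kinase of the complex, fell short of the mean of 5 CPM, at 1.29 CPM in zoledronate week 12 and 6.75 CPM in CGRP week 4.

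Kinetochore and centromere members were led by Cenpf, a kinetochore protein that builds up in G2, at 162, 98.3, 221 and 107 CPM at week 4 and 136, 20.5, 60.5 and 57.5 CPM at week 12. Cenpw, part of the constitutive centromere network, stood at 78.9, 52.8, 102 and 56.3 CPM at week 4, and 91.7, 15.3, 36.0 and 33.9 CPM at week 12. Spc25, a subunit of the Ndc80 complex that grips microtubules, stood at 49.1, 31.6, 65.8 and 35.6 CPM at week 4, and 47.5, 9.75, 25.03 and 21.8 CPM at week 12. In control, Cenpf was lower at week 12 than at week 4 whereas Cenpw was higher. Of the remaining members of this role, Knstrn, Cenpa, Nuf2 and Ndc80 also had their lowest value in zoledronate week 12, and the histone chaperone Hjurp had 13 to 103 UMIs per library and too low a level for a ratio.

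The spindle checkpoint kinases Bub1 and Ttk stood within a narrow band in control. Bub1 stood at 36.0, 24.7, 46.3 and 25.7 CPM at week 4, and 35.7, 6.51, 16.1 and 16.1 CPM at week 12. Ttk stood at 27.3, 17.0, 32.3 and 18.6 CPM at week 4, and 24.7, 4.91, 12.6 and 11.8 CPM at week 12. Mad2l1, which encodes the checkpoint inhibitor of Cdc20, was the single member of the 43 whose highest library was not CGRP week 4. It stood at 10.7, 8.01, 16.0 and 8.12 CPM at week 4, and 16.2, 3.46, 6.39 and 6.75 CPM at week 12, and the intervals of its 2 highest libraries (15.5 to 16.9 CPM in control week 12 and 15.4 to 16.7 CPM in CGRP week 4) overlapped.

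Spindle motors and microtubule proteins formed the role with the most members. Tpx2, which activates the kinase Aurka on the spindle, stood at 71.1, 48.2, 113 and 55.1 CPM at week 4, and 78.7, 11.2, 34.0 and 29.1 CPM at week 12. Kif22, a chromosome-bound kinesin, stood at 43.4, 32.2, 58.2 and 35.4 CPM at week 4, and 39.98, 16.1, 26.1 and 25.4 CPM at week 12. Dlgap5, a spindle assembly factor, stood at 45.6, 29.8, 66.8 and 35.0 CPM at week 4, and 43.6, 11.7, 21.6 and 20.02 CPM at week 12. Kif22 was the flattest of these, with a highest library 3.62 times the lowest, while Hmmr, a spindle and hyaluronan-binding protein, had the widest spread of the 43 members (11.3 times). Psrc1 had 15 to 218 UMIs per library.

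In the central spindle and cytokinesis role, Prc1, which bundles the microtubules between the parting chromosomes, stood at 113, 68.7, 155 and 74.1 CPM at week 4, and 119, 18.8, 48.6 and 49.1 CPM at week 12. Kif23, the kinesin of the centralspindlin complex, stood at 48.0, 30.8, 70.5 and 33.9 CPM at week 4, and 54.0, 7.99, 19.7 and 19.6 CPM at week 12. For both genes the CGRP and magnesium libraries of week 12 lay close together, below every week 4 library and above zoledronate week 12.

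Among chromosome structure genes, Mki67, which coats mitotic chromosomes and is the usual marker of proliferating cells, stood at 122, 72.3, 150.5 and 80.3 CPM at week 4, and 96.5, 15.5, 46.2 and 43.3 CPM at week 12. Top2a, the topoisomerase that untangles sister chromatids, stood at 71.4, 38.3, 79.2 and 42.7 CPM at week 4, and 40.8, 7.38, 23.2 and 20.9 CPM at week 12. Unlike Ccnb1 or Prc1, both genes were lower in control at week 12 than in control at week 4.

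The transport and membrane members were Arl6ip1, which shapes the endoplasmic reticulum, and Kpna2, an importin of the nuclear import machinery. Arl6ip1 stood at 149, 112, 199 and 117 CPM at week 4, and 177, 73.6, 107 and 102 CPM at week 12. Kpna2 stood at 139.7, 99.0, 179 and 102 CPM at week 4, and 124, 42.6, 74.3 and 75.9 CPM at week 12. These had the highest and lowest libraries of the other members but spanned less, and the highest library of Arl6ip1 was 2.71 times its lowest, the least of the 43.

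Over all 43 members the lowest value was in zoledronate week 12 each time, and the highest was in CGRP week 4 for 42. The shares of all genes with these extremes were not computed, so these counts have no background beside them. The ratio of the highest to the lowest library had a median of 7.73 over members.

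**Figure D2:**
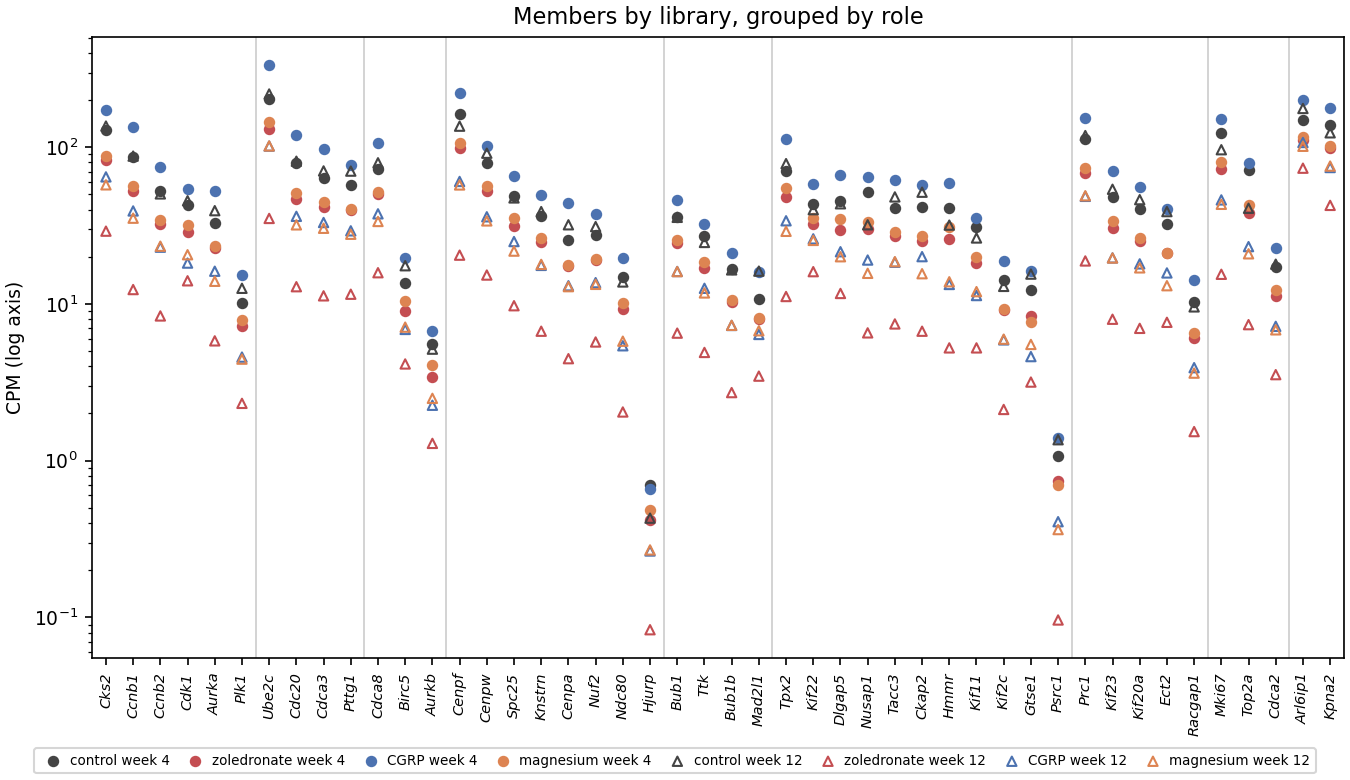
CPM of each of the 46 listed members in each library on a log axis, ordered by role (grey lines) and by UMIs within a role; filled circles are week 4 and open triangles week 12. The red triangles, zoledronate week 12, are the lowest mark of every member, and the filled blue circles, CGRP week 4, are the highest or close to it.

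In the comparison of zoledronate with control, the members were lower at both weeks. At week 4 all 43 members were below control, 23 of them at least 1.5-fold, with a median log2 ratio of -0.60 (log2 of CPM plus 1 throughout). Of all 7226 genes, 1.15% were at least 1.5-fold lower in this comparison and 1.56% higher, where 0 members were, and the median over them was 0.00 on the log2 scale. The largest difference was in Top2a (-0.88) and the smallest in Mad2l1 (-0.38). By role, 5 of 5 cytokinesis members and 3 of 4 of the anaphase group passed 1.5-fold, against 0 of 2 passenger and 0 of 2 transport members.

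At week 12 all 43 members were at least 1.5-fold lower in zoledronate, with a median of -2.28. Of all genes, 12.1% were at least 1.5-fold lower and 5.34% higher, and their median was -0.12. All 43 members were also at least 2-fold lower, and the share of all genes at that cut was not computed. The module sum was 4.94-fold lower and the share of module-high cells 7.01-fold lower. Ckap2, a spindle protein, had the largest difference (-2.77), followed by Ccnb1 (-2.73) and Tpx2 (-2.71). The smallest were Arl6ip1 (-1.25), Kif22 (-1.26), Kpna2 (-1.52) and Cdk1 (-1.63). By role the medians ran from -1.39 for the transport members to -2.57 for cytokinesis members. Fibroblastic markers, by contrast, were at least 1.5-fold higher in zoledronate for 5 of 8 tested markers in this comparison.

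Adding CGRP to zoledronate went with higher levels of the members at both weeks. At week 4 all 43 were at least 1.5-fold higher than in zoledronate alone, with a median of 1.03. Of all genes, 4.3% were at least 1.5-fold higher and 5.9% lower. At least 2-fold was reached by 25 of the 43 members, and the share of all genes at that cut was not computed. The values ran from 0.83 (Arl6ip1) to 1.36 (Ube2c). At week 12, 40 of 43 were at least 1.5-fold higher, with a median of 1.20 and, of all genes, 6.02% higher and 4.94% lower. Cdk1 was the smallest at 0.35, with Gtse1 (0.43), a microtubule-binding regulator of p53, and Arl6ip1 (0.54) as the others short of 1.5-fold, and Ccnb1 was the largest at 1.59. At week 4, 7 of 8 tested fibroblastic markers were at least 1.5-fold lower in CGRP, and at week 12 this held for 1.

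Magnesium and zoledronate were close at week 4 and apart at week 12. At week 4, 0 of 43 members passed 1.5-fold in either direction, where 0.595% of all genes were higher and 0.567% lower by that much. The median was 0.10, with 42 members slightly higher in magnesium and Gtse1 lower (-0.11), and Hmmr had the largest value (0.24). With 1 library a group, values this small have no spread to be set against. At week 12, 41 of 43 were at least 1.5-fold higher in magnesium, with a median of 1.15, against 7.79% of all genes higher and 4.54% lower. The values ran from 0.46 (Arl6ip1) to 1.51 (Ube2c), and Cdk1 (0.52) was the other member short of 1.5-fold. Of the 8 fibroblastic markers, 2 were at least 1.5-fold higher and 2 lower in magnesium at week 12, and 1 was higher at week 4. The CGRP, magnesium and control comparisons all share the zoledronate library of their week, so their values are set side by side and not counted as separate evidence.

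**Figure D3:**
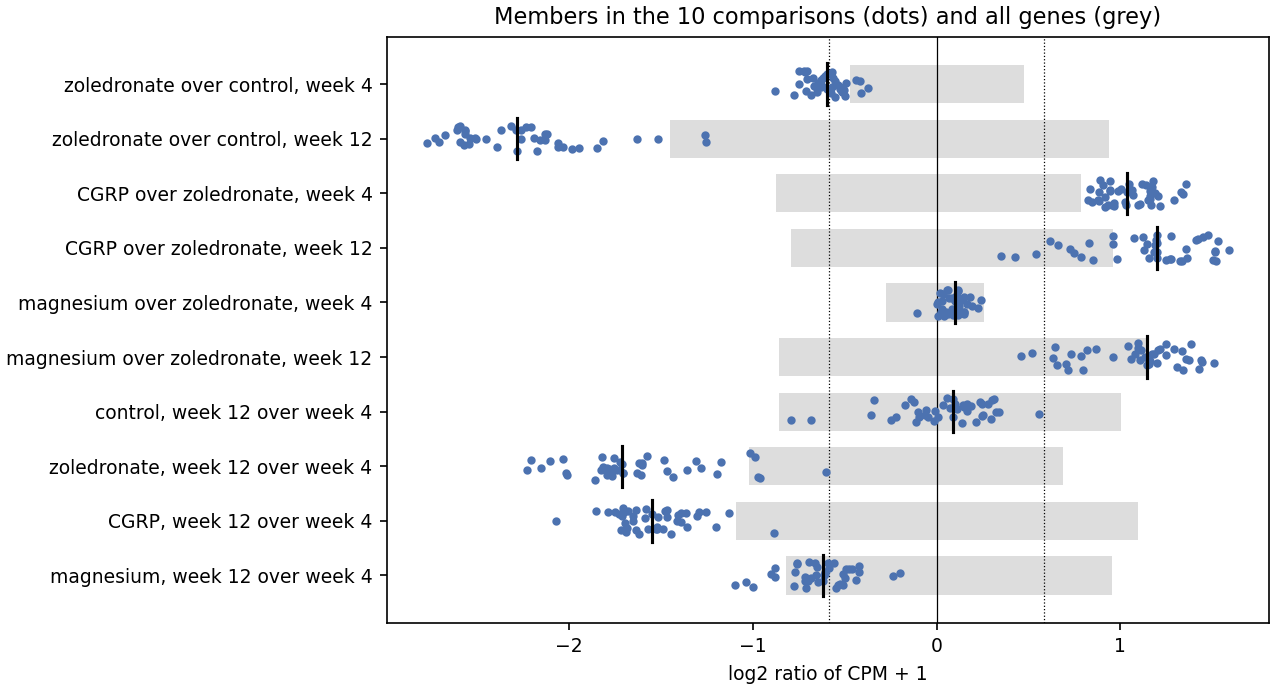
Log2 ratios of CPM plus 1 for the 43 tested members (dots, spread vertically at random) in 10 comparisons, with the members' median (black bar), the central 95% of all 7226 genes (grey) and 1.5-fold in each direction (dotted). At week 12 the zoledronate to control ratios centre on -2.28, and the magnesium to zoledronate ratios of week 4 centre on 0.10.

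Between weeks, the module sum was nearly level in the control libraries. From week 4 to week 12 in control, 26 members were higher and 17 lower, with a median of 0.09, and 2 were at least 1.5-fold lower, namely Top2a (-0.79) and the spindle protein Nusap1 (-0.68), beside 4.61% of all genes. None of the 43 was at least 1.5-fold higher, beside 7.86% of all genes, and Mad2l1 came closest at 0.56. The 43 members thus had no shared direction in control, although the share of module-high cells was 31.3% at week 4 and 41.4% at week 12.

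In zoledronate, by contrast, 43 of 43 members had a week 12 level at least 1.5-fold below that of week 4, with a median of -1.71 and 6.14% of all genes lower and 3.18% higher. Top2a was the furthest at -2.23 and Arl6ip1 the nearest at -0.60. In CGRP, 43 of 43 were lower by this much, with a median of -1.55 beside 7.32% of all genes lower and 7.1% higher, from -2.07 in Hmmr to -0.89 in Arl6ip1. In magnesium, 28 of 43 were, with a median of -0.62 beside 4.89% of all genes lower and 5.76% higher, from -1.10 in Hmmr to -0.20 in Arl6ip1. Fibroblastic markers differed between the weeks as well: of 8 tested, 5 were at least 1.5-fold lower at week 12 in control, 5 were higher in CGRP (median 1.42), 1 was higher and 1 lower in zoledronate, and 2 were higher and 2 lower in magnesium. Their part in the members' values was not tested. The difference between the weeks was thus smaller in the magnesium libraries than in those of zoledronate or CGRP, which was not tested.

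Most of the members' UMIs came from the module-high cells, which the same genes define. These cells held 71.2% (zoledronate week 12) to 95.5% (CGRP week 4) of the module's UMIs. Over the 8 libraries, the share of a gene's UMIs found in them was highest for Top2a (98.4%), Cenpf (98.1%) and Hmmr (97.6%). It was lowest for Arl6ip1 (67.1%), Kif22 (75.8%) and Kpna2 (78.9%), the members with more transcripts outside. In zoledronate week 12, the share for Arl6ip1 was 27.1%. The transport and membrane members made up 30.0% to 53.7% of the module's UMIs in the other cells, against 9.98% to 11.1% inside.

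In the other cells the module stood at 254, 209, 312 and 226 CPM at week 4, and 339, 157, 204 and 202 CPM at week 12. This level was lowest in the library with the smallest share of module-high cells, zoledronate week 12, and highest in the pair with the largest shares, control week 12 and CGRP week 4. The part of free RNA in the droplets was not tested.

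Within the module-high cells the members' levels were far closer between libraries than over all cells. The module stood at 6638, 6172, 6592 and 6205 CPM inside these cells at week 4, and 5315, 5019, 5019 and 4932 CPM at week 12. The ratio of the highest to the lowest library had a median of 1.44 over the 43 members inside, with a range of 1.22 to 2.19, against 7.73 over all cells. A threshold on the module fixes part of this closeness, so it is a description. Inside these cells 33 of 43 members had all 4 libraries of week 4 above all 4 of week 12. The share of all genes with this order was not computed. The module sum that selects the cells was itself higher inside them at week 4, so the members are not separate observations.

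The median log2 ratio inside the module-high cells was -0.08 for zoledronate over control at week 4 and -0.10 at week 12. It was 0.07 and -0.01 for CGRP over zoledronate, and 0.01 and -0.02 for magnesium over zoledronate. From week 4 to week 12 it was -0.25 in control, -0.28 in zoledronate, -0.39 in CGRP and -0.30 in magnesium. The 6 treatment medians inside lay between -0.10 and 0.07, and the 4 medians over time between -0.39 and -0.25. The threshold holds the levels inside close together, so these values do not divide a difference between the share of cells and the level within them.

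A few members departed from this. Cdk1 stood at 113, 110.3, 104 and 114 CPM inside the module-high cells of week 4 and at 97.1, 149.7, 82.0 and 95.7 CPM at week 12, so the zoledronate library of week 12 was the highest. Birc5 behaved alike, at 37.3, 36.1, 37.7 and 38.2 CPM at week 4 and 37.4, 48.6, 31.3 and 33.3 CPM at week 12. Top2a had another pattern, at 202, 161, 157 and 168 CPM at week 4 and 92.4, 99.7, 113 and 106 CPM at week 12. Its control library went from the highest at week 4 to the lowest at week 12. Ube2c stood at 562, 533, 654 and 551 CPM at week 4, and 478, 456, 481 and 504 CPM at week 12, with the CGRP library of week 4 highest. In zoledronate over control at week 12, the log2 ratio inside was 0.62 for Cdk1, the highest of the 43, 0.37 for Birc5, and -0.46 for Ckap2, the lowest.

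**Figure D4:**
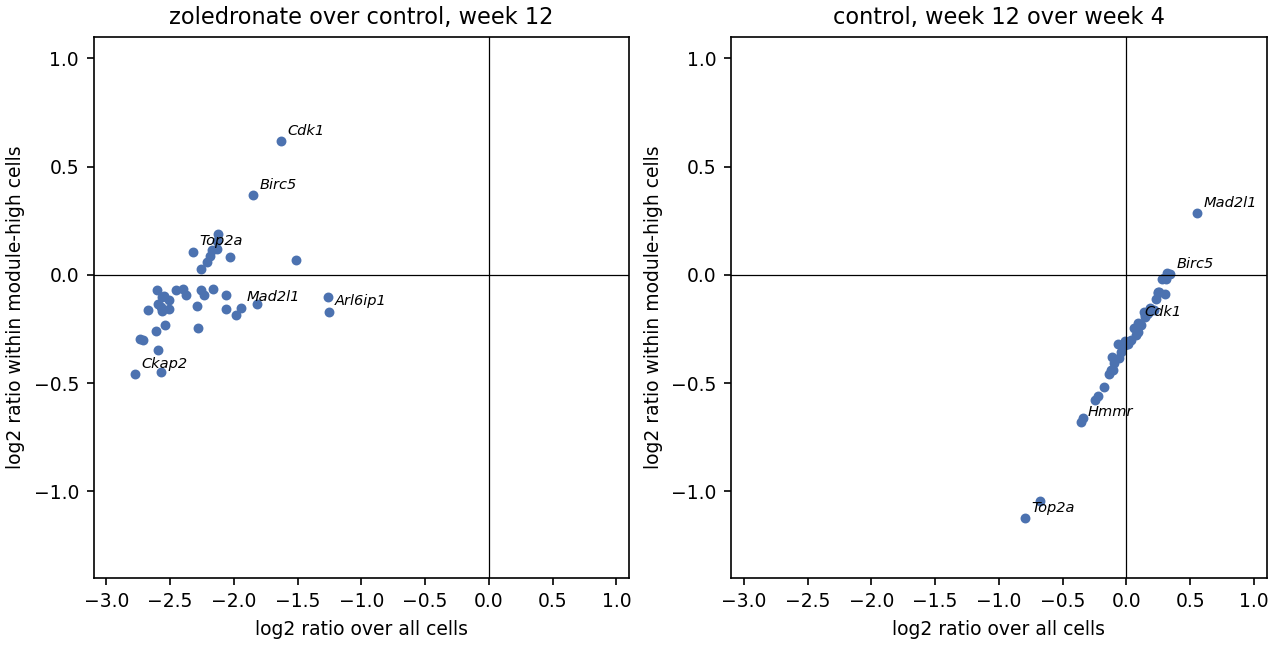
Log2 ratio of CPM plus 1 over all cells (horizontal axis) and within module-high cells (vertical axis) for the 43 tested members, in zoledronate over control at week 12 (left) and control week 12 over week 4 (right). On the left all members are at -1.25 or less over all cells, while inside the module-high cells the median is -0.10 and Cdk1 is at 0.62; on the right Top2a is lowest on both axes (-0.79 and -1.12).

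Module-high cells were also split into 4 ranges of module share, 0.1 to 0.2%, 0.2 to 0.5%, 0.5 to 1% and 1% or more of UMIs. These ranges are wide and cut on a sum that includes each member itself, so libraries can still differ in module share within a range. Cells with 1% or more made up 12.2% of module-high cells in zoledronate week 12 and 22.3% in control week 4. Week 12 libraries had 12.2% to 12.6% in that range and week 4 libraries 18.8% to 22.3%. The week 4 libraries thus had more of their module-high cells in the top range.

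Members differed in how their level climbed through the ranges, which the ranges themselves partly fix. From the lowest to the highest range the level of Ccnb1 was 16.6 to 28.6 CPM and then 506 to 582 CPM over the 8 libraries, a median ratio of 27.4. Plk1 (27.9) and Aurka (26.9) were alike. Mad2l1 had the smallest median ratio (2.17), followed by Pttg1 (2.86) and Cenpw (2.995). Cdk1 lay between these groups, with a median ratio of 5.71.

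Cdk1 stayed highest in zoledronate week 12 in each of the 4 ranges, at 56.7, 118, 204 and 308 CPM from the lowest range up. The other 7 libraries lay at 27.8 to 40.2, 58.1 to 78.5, 112 to 127 and 177 to 219 CPM. Birc5, Cks2, Ect2 (an exchange factor for RhoA in cytokinesis) and Aurkb were also highest there in all 4 ranges. Some of these orders rest on overlapping intervals. In the lowest range Cks2 was at 90.7 CPM (79.5 to 103) in zoledronate week 12 and 84.2 CPM (77.8 to 91.0) in CGRP week 12. Aurkb had as few as 15 UMIs in a range. Top2a was highest in control week 4 in all 4 ranges (29.1, 106.5, 217 and 418 CPM), against 9.36, 50.9, 114 and 271 CPM in control week 12. In the lowest range the control week 4 interval (25.6 to 33.0 CPM) overlapped that of zoledronate week 4 (23.8 to 31.5 CPM). Nusap1 was lowest in control week 12 in all 4 ranges, and Aurka was highest there in all 4. Since there is 1 library for each group, a difference between libraries in preparation and a difference between groups cannot be told apart here.

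**Figure D5:**
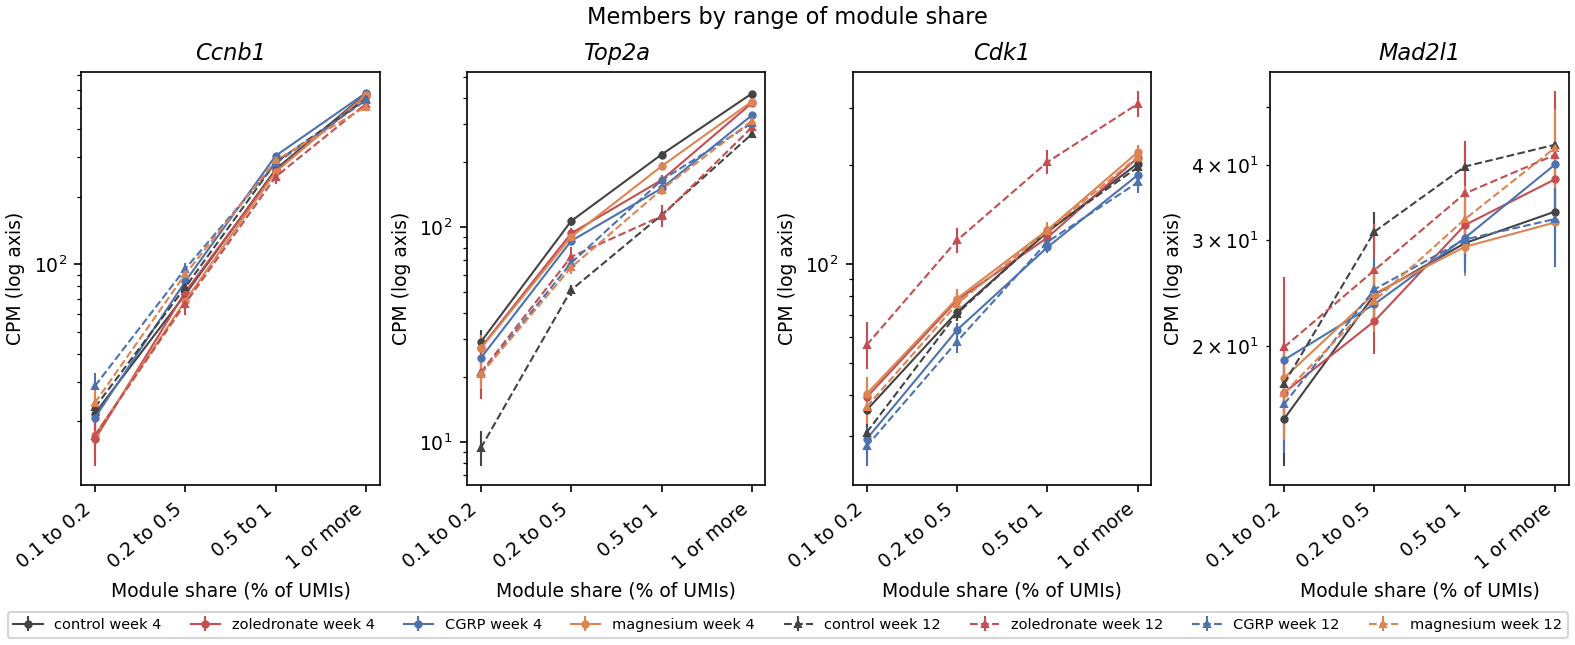
CPM (log axis) of Ccnb1, Top2a, Cdk1 and Mad2l1 in module-high cells split by the members' share of UMIs, one line per library with 95% Poisson intervals. The zoledronate week 12 line of Cdk1 lies above the other 7 in every range (308 CPM in the top range, against 177 to 219 CPM), and the control week 12 line of Top2a begins lowest (9.36 CPM).

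Other genes of mitosis, not among the members, were followed with a list of 57, of which 46 were listed and 35 tested. Smc4, a condensin subunit, stood at 143, 103, 158 and 104 CPM at week 4, and 113, 52.7, 67.0 and 80.8 CPM at week 12. Cks1b, a partner of cyclin-dependent kinases, stood at 103, 74.9, 131 and 78.9 CPM at week 4, and 118, 50.4, 79.0 and 74.3 CPM at week 12. Both genes were highest in CGRP week 4 and lowest in zoledronate week 12, as most members were. Not every gene of the list had this order: Zwint, a kinetochore protein, was lowest in CGRP week 4 (25.9 CPM) and highest in control week 12 (46.2 CPM). In zoledronate over control, 8 of 35 were at least 1.5-fold lower at week 4 (median -0.55, beside 1.15% of all genes) and 34 of 35 at week 12 (median -1.99, beside 12.1%). In magnesium over zoledronate, 0 of 35 passed at week 4 and 28 of 35 were higher at week 12 (median 0.91, beside 7.79% of all genes). CHR letters were in 64.1% of their promoter windows.

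The core subunits of the anaphase-promoting complex, the ubiquitin ligase that Cdc20 activates and Ube2c serves, were also followed. All 13 listed subunits were tested and 0 passed 1.5-fold in any of the 10 comparisons. Of all genes, 0.567% to 12.1% passed it per comparison and direction. In 1 comparison and direction, a count of 0 of 13 differs little from such a share. The comparisons share libraries, and the 0 over all 10 was not set against a pooled background. Anapc11, its RING subunit, stood at 265, 249, 261 and 269 CPM at week 4, and 234, 249, 271 and 254 CPM at week 12. Anapc13 stood at 190.5, 206, 219 and 217.5 CPM at week 4, and 201, 223, 234 and 216 CPM at week 12. In zoledronate over control at week 12 the 13 had a median of -0.22, while Ube2c and Cdc20 were among the members at least 2-fold lower. CHR letters were in 3 of 11 subunit windows (27.3%). They were in 28.3% of all promoters and in 19% of the promoters of genes in the count tables.

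Regulators of mitotic transcription made a list of 22, of which 17 were listed and 11 tested, with Tfdp1 (72.5 to 108 CPM over the libraries), the partner of E2F factors, and Nfyb (39.1 to 52.5 CPM), a subunit of the CCAAT-binding factor NF-Y, having the most UMIs. In zoledronate over control at week 12, 4 of 11 were at least 1.5-fold lower and 1 higher, with a median of -0.44, beside 12.1% of all genes lower and 5.34% higher. Mybl2 (B-Myb), which joins MuvB in dividing cells, was the lowest at -2.01, and Rbl2 (p130), which joins MuvB in resting cells, was the highest at 0.74. The others at least 1.5-fold lower were E2f1 (-1.27), Lin54 (-0.65) and Rbbp4 (-0.63). Rb1 (0.39) and Lin37 (0.28) were higher without passing 1.5-fold. In CGRP over zoledronate Mybl2 was at 0.73 and Rbl2 at -0.70 at week 4, and at 0.85 and -0.18 at week 12. In magnesium over zoledronate they were at -0.01 and -0.03 at week 4, and at 1.06 and -0.26 at week 12. In zoledronate over control at week 4 they were at -0.52 and 0.03. Rbl2 thus lay past 1.5-fold in 2 of these 6 comparisons and Mybl2 in 4. Inside the module-high cells, the 11 tested regulators had a median of 0.05 in zoledronate over control at week 12. There Mybl2 was at 0.14, Rbl2 at 0.58, E2f1 at 0.49 and Rbbp4 at -0.37. Over the 8 libraries, 87.9% of the UMIs of Mybl2 and 20.7% of those of Rbl2 lay in module-high cells. Foxm1, which activates G2 and mitosis genes, was below the mean of 5 CPM, at 1.53 CPM in zoledronate week 12 and 7.12 CPM in CGRP week 4.

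Genes of DNA replication, used in S phase, were read as a list of 30. They were summed for each cell, and 84.0% to 90.7% of module-high cells had at least 0.1% of their UMIs from them, against 2.61% to 11.4% of other cells. After thinning to 5000 UMIs these shares were 79.9% to 87.4% and 5.14% to 13.99%. Dut, the dUTPase, ranged from 112 to 238 CPM over libraries and Rrm2, a subunit of ribonucleotide reductase, from 33.7 to 203 CPM. In zoledronate over control, 1 of 26 tested replication genes was at least 1.5-fold lower at week 4 (median -0.45, beside 1.15% of all genes) and 25 of 26 at week 12 (median -1.44, beside 12.1%). Most module-high cells thus also carried replication transcripts. CHR letters were in 20.7% of the replication genes' windows and CCAAT in 65.5%.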

How the data were processed

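The authors deposited 1 table of UMI counts per library (10x Chromium V3 chemistry, genes by barcodes), and 46 of the 49 members were matched by symbol. STAR and Rnor_6.0 are named in the submitters' processing notes; no source used here gives the version, annotation or cell calling. Every listed gene had UMIs in at least 5 cells of its library, and 0 mitochondrially encoded genes were listed. From these counts, UMIs were summed over barcodes with at least 5000 UMIs (2.40% to 11.7% of barcodes were left out) and scaled to CPM. Log2 ratios used CPM plus 1 and genes with a mean of at least 5 CPM. No doublets were called or removed, so they were treated as present. Analyses used Python 3.11.15, numpy 2.4.6, scipy 1.17.1, pandas 2.3.3 and, for scaling alternatives, edgeR 4.0.16 and DESeq2 1.42.0 in R 4.3.3. The ratio step was tested on simulated data. Reads shared with near-identical copies of a gene cannot be judged from the tables.

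Libraries were grouped by their titles. The members, gene lists and tests were chosen with earlier results of these data known. In each of 9 roles, the 2 members with the most UMIs over the libraries (3 where a role has over 8 members), and always Mki67, Top2a, Ccnb1 and Cdc20, are given in every library; for each comparison, the highest and lowest members are named. Cdk1, Mad2l1, Hmmr, Ckap2, Tpx2, Gtse1, Nusap1 and others named beyond this were chosen after their values were seen. So were Zwint, Mybl2, Rbl2, E2f1, Lin54, Rbbp4, Rb1, Lin37, Foxm1, Dcn, Lum, Pdgfrb and the single bone and cartilage markers. Alternatives were other scaling factors, barcode minimums, a pseudocount of 0.1 CPM, no filter, thinning to 5000 UMIs, other thresholds for module-high cells and leaving out 5 members.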

Additional observations from a re-analysis of the deposited data

Results flagged for a closer look

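The share of module-high cells moved in opposite directions with time in control and in the zoledronate-treated groups. On the log2 scale of week 12 over week 4 it was 0.40 in control, -1.81 in zoledronate, -1.56 in CGRP and -0.42 in magnesium. The module sum was 0.02 in control, -1.66 in zoledronate, -1.56 in CGRP and -0.64 in magnesium. Each value compares 1 library with 1 library, so the difference between the groups was not tested.

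Barcodes with under 5000 UMIs, which enter no comparison here, held members too. Their module level was 2464, 1550, 3995 and 1656 CPM in control, zoledronate, CGRP and magnesium at week 4, from 732, 376, 675 and 960 barcodes. At week 12 it was 2391, 508, 973.9 and 998.7 CPM, from 652, 524, 300 and 197 barcodes. The zoledronate library of week 12 was again the lowest and CGRP week 4 the highest.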

How the results depend on the processing

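The count of members past 1.5-fold kept within 1.5 times its value in 69 of 70 recomputations over 10 comparisons and 7 alternatives. The exception was control week 12 over week 4, where thinning to 5000 UMIs left 1 member lower in place of 2. In that comparison thinning and a pseudocount of 0.1 CPM each put 1 member at least 1.5-fold higher, where the main setting had 0. Counts at 0, as in magnesium over zoledronate at week 4, or at 43 of 43 had little room to move. The sign of the members' median was the same in 7 of 7 alternatives for each comparison. TMM and DESeq2 scaling shifted zoledronate over control at week 12 by 0.10 and 0.12 on the log2 scale for all genes.

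The share of module-high cells depended on the threshold, as its construction fixes. At 0.05% of UMIs it was 37.9%, 25.4%, 56.8% and 27.2% in control, zoledronate, CGRP and magnesium at week 4 and 52.5%, 7.76%, 21.1% and 20.9% at week 12. At 0.2% it was 25.7%, 16.3%, 40.8% and 18.1%, then 32.7%, 4.46%, 12.3% and 12.4%. Without Arl6ip1, Kpna2, Cks2, Cenpw and Ckap2 it was 29.5%, 19.3%, 45.9% and 20.6%, then 37.8%, 5.38%, 14.9% and 15.3%. Thinning gave 32.6% and 42.8% in control and 49.9% in CGRP at week 4. With at least 10000 UMIs per barcode, CGRP week 12 was at 19.5% and magnesium week 12 at 16.8%. Against the main setting, the CGRP and magnesium libraries of week 12 changed places at this barcode minimum and at a threshold of 0.05%.

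Inside module-high cells, a threshold of 0.2% moved the median log2 ratio of zoledronate over control to -0.031 and -0.070 at weeks 4 and 12, of CGRP over zoledronate to -0.0037 and 0.033, and of magnesium over zoledronate to -0.013 and 0.0054. For week 12 over week 4 it gave -0.22, -0.24, -0.26 and -0.23 in control, zoledronate, CGRP and magnesium, and thinning gave -0.21, -0.31, -0.32 and -0.32. Thinning also gave 0.087 for CGRP over zoledronate at week 12, and 0.018 and 0.015 for magnesium over zoledronate at weeks 4 and 12. The medians of CGRP and of magnesium over zoledronate changed sign between settings, while those of zoledronate over control and of week 12 over week 4 kept theirs; the cause was not tested.

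No paired analysis was possible because each group is 1 library, and for the same reason no library could be left out of a group. Depth limits Hjurp and Psrc1, which had as few as 13 and 15 UMIs in a library.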
